A study of Mus musculus with 4 samples.

Results

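The genes described here are 32 genes of glycolysis and of the response to low oxygen, taken by their symbols from a table of 50559 genes. The rule uses their symbols and no measured value, but the set was drawn up with earlier results of these data known. Their RNA was measured in E14 mouse embryonic stem cells (ESCs), a line derived from the inner cell mass and kept here on gelatin with serum replacement and leukemia inhibitory factor. The cells of all 4 libraries carried a stably integrated lentiviral hairpin, and each group is a single library. The control (shscr_EV) held a scrambled hairpin and the empty vector, and the knockdown (shYthdf2_EV) held a hairpin against *Ythdf2* and the empty vector. The wild-type rescue (shYthdf2_WT) combined the *Ythdf2* hairpin with YTHDF2, and the mutant rescue (shYthdf2_Mut) combined it with a YTHDF2 that is mutated in m6A binding. YTHDF2 is a cytoplasmic reader of N6-methyladenosine (m6A), a mark on messenger RNA, and the comparisons ask how its loss and its return, with or without m6A binding, change the RNA of these genes. The labels do not say which *Ythdf2* hairpin was used, and the lines were selected with puromycin, so each group is 1 selected cell population.

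Glycolysis takes up glucose through membrane transporters, phosphorylates and splits it, and recovers energy in the later steps that lead to pyruvate. Pyruvate is then reduced to lactate and exported, or enters the mitochondrion through the pyruvate dehydrogenase complex, which the PDK kinases switch off. When oxygen is low, the prolyl hydroxylases encoded by the *Egln* genes stop marking the hypoxia-inducible factors for destruction, and these factors raise the transcription of most glycolytic genes and of genes such as *Vegfa* and *Bnip3*. Mouse ESCs use both glycolysis and mitochondrial respiration.

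Total counts were 32382858 reads in shscr_EV, 35742335 in shYthdf2_EV, 32584252 in shYthdf2_WT and 31533129 in shYthdf2_Mut, and all 32 genes had over 100 reads on average. Because each group is 1 library, nothing shows how far replicates would vary and no test was possible, and every interval below is a 95% Clopper-Pearson interval that covers counting error only. *Ythdf2* itself had 2806 reads in shscr_EV, 662 in shYthdf2_EV, 7661 in shYthdf2_WT and 6925 in shYthdf2_Mut, a log2 ratio of -2.27 for the knockdown (interval -2.45 to -2.10). The hairpin and rescue labels therefore match the counts of their gene, whose total in the rescue libraries includes any introduced transcript that aligned to it. All 12 ESC markers examined were detected, among them *Pou5f1* with 25505 to 29882 reads per library. Mitochondrial genes took 8.44% of the reads in shscr_EV and between 6.14% and 6.75% in the other libraries. The libraries also stood apart on genes of the Y chromosome. *Ddx3y* had 2 reads in shscr_EV, 261 in shYthdf2_EV, 26 in shYthdf2_WT and 197 in shYthdf2_Mut, and *Eif2s3y* had 0, 225, 35 and 218. The control and the wild-type rescue thus lay below the knockdown and the mutant rescue on these genes, and this difference between cell populations cannot be told apart from that between the constructs. Its part in the results below was not tested. With the genes of chromosomes 12 and Y left out of the scaling and the set, the median log2 ratio of the set was -0.21 for the knockdown against the control and -0.29 for the mutant against the wild-type rescue.

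Hypoxia-inducible factors bind a short element whose core is ACGTG or GCGTG, and the promoters of the 32 genes were read for it on both strands, where the same letters appear as CACGT or CACGC. RefSeq promoter windows of GRCm38.p6, from 250 bases before to 50 after a start site, were found for 31 of the 32 genes. *Slc2a3* had no entry. ACGTG was in a window of 22 of these 31 genes (71.0%), against 3637 of 13124 tested genes with a window (27.7%). The windows below are those of the 5 genes with the core ACGTG whose RNA was at least 1.5-fold lower in the knockdown, followed by 1 each of *Ldha* and *Slc16a1*, which were not. Capitals mark ACGTG or, on the other strand, CACGT.
Hk1: cgcgctccttACGTGgggaacgtgc
Hk1, second match: tacgtggggaACGTGcagggtgatg
Aldoc: cccagggagtCACGTagctctgcgg
Gapdh: tttacgggtgCACGTagc
Vegfa: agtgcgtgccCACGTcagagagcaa
Egln1: gccgtggtgtACGTGcagcgcgcgc
Ldha: gcccagcctaCACGTgggttcccgc
Slc16a1: ggcgccgggtCACGTggcgggaagg

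The *Hk1* matches lie at chr10:62340400-62340424 and chr10:62340391-62340415 on the minus strand, just after the start site. The *Aldoc* window, which also follows the start site, is chr11:78323090-78323114 on the plus strand, and the *Gapdh* window, which ends at the edge of the promoter record, is chr6:125165724-125165741 on the minus strand. That of *Vegfa* is chr17:46025360-46025384 on the minus strand, at position -211 from the start site, and that of *Egln1* is chr8:124949308-124949332 on the minus strand, at position -68. *Ldha* (chr7:46845746-46845770, plus strand) and *Slc16a1* (chr3:104638454-104638478, plus strand) hold the match inside CACGTG, an E-box that other factors also bind. CACGTG was in windows of 6 of the 31 genes (19.4%) and of 11.0% of the tested genes.

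The matches did not separate the genes by their change in the knockdown. Of the 6 genes that were at least 1.5-fold lower there, 5 had ACGTG and *Eno2* had none, and of the other 25 with a window, 17 had it. The promoters of the 32 genes are rich in G and C (median 62.0%, against 59.3% for windows of tested genes). Among windows with at least 60% G and C, 17 of 23 genes (73.9%) held ACGTG, against 28.8% of the tested genes with such windows. With GCGTG included, the core was present in 28 of 31 genes (90.3%) and in 63.4% of the tested genes. A match is only a run of letters and does not show that a factor bound there.

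In the knockdown, RNA of most of these genes was lower than in the control by small amounts. Of the 32 genes, 27 were lower and 5 higher in shYthdf2_EV than in shscr_EV, where 50.2% of the 18586 tested genes were lower and 49.8% higher. Of the 27, *Hk2*, *Pgam1* and *Ldhb*, whose intervals included 0, turned to slightly higher when libraries were scaled by total counts. For 24 genes the counting interval lay below 0 and for 3 it lay above, against 22.8% and 23.2% of all tested genes, or 29% and 29.1% of those with at least 100 reads on average. Their median log2 ratio was -0.21, a 0.865-fold level, and the median of all tested genes was -0.0015. The 6 genes at least 1.5-fold lower were *Hk1*, *Aldoc*, *Gapdh*, *Eno2*, *Vegfa* and *Egln1*, against 12.9% of all tested genes, or 6.04% of the 12292 genes with at least 100 reads on average. Only *Eno2* was at least 2-fold lower (5.7% of all tested genes), and 0 were at least 1.5-fold higher (13.8%) or 2-fold higher (7.1%). Among genes with at least 100 reads on average, these shares were 1.4%, 7.08% and 2.62%. The lower genes included highly expressed glycolytic genes as well as weakly expressed forms. Together, the 32 genes made up 1.53% of all reads in shscr_EV, 1.35% in shYthdf2_EV, 1.73% in shYthdf2_WT and 1.43% in shYthdf2_Mut. In bulk RNA, fewer cells that express a gene and less RNA per cell cannot be told apart.

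Wild-type YTHDF2 was accompanied by higher levels of nearly all the genes, and the mutant by smaller differences from the knockdown. Against shYthdf2_EV, 30 of the 32 genes were higher in shYthdf2_WT (50.4% of all tested genes), with a median log2 ratio of 0.40, and 7 were at least 1.5-fold higher (12.2%). The 3 at least 2-fold higher were *Aldoc*, *Eno2* and *Vegfa* (5.15% of tested genes). Among genes with at least 100 reads on average, 5.54% were at least 1.5-fold and 1.15% at least 2-fold higher. In shYthdf2_Mut, 29 were higher than in the knockdown (51.2%), but the median log2 ratio was 0.097 and *Gapdh* alone reached 1.5-fold (6.5%), with 0 at 2-fold (2.65%). By the medians, the mutant rescue lay between the knockdown and the control. Against the control, 26 genes were higher in shYthdf2_WT (50.7%; median 0.13) and 22 were lower in shYthdf2_Mut (51.4%; median -0.07). *Slc16a3* alone was at least 1.5-fold higher in shYthdf2_WT than in the control (9.28%), with 0 at 2-fold (3.82%). *Hk1*, *Pfkm*, *Eno2* and *Vegfa* were at least 1.5-fold lower in shYthdf2_Mut than in the control (13.2%), with 0 at 2-fold (5.69%). These comparisons share libraries, so they are not independent of each other.

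**Figure D1:**
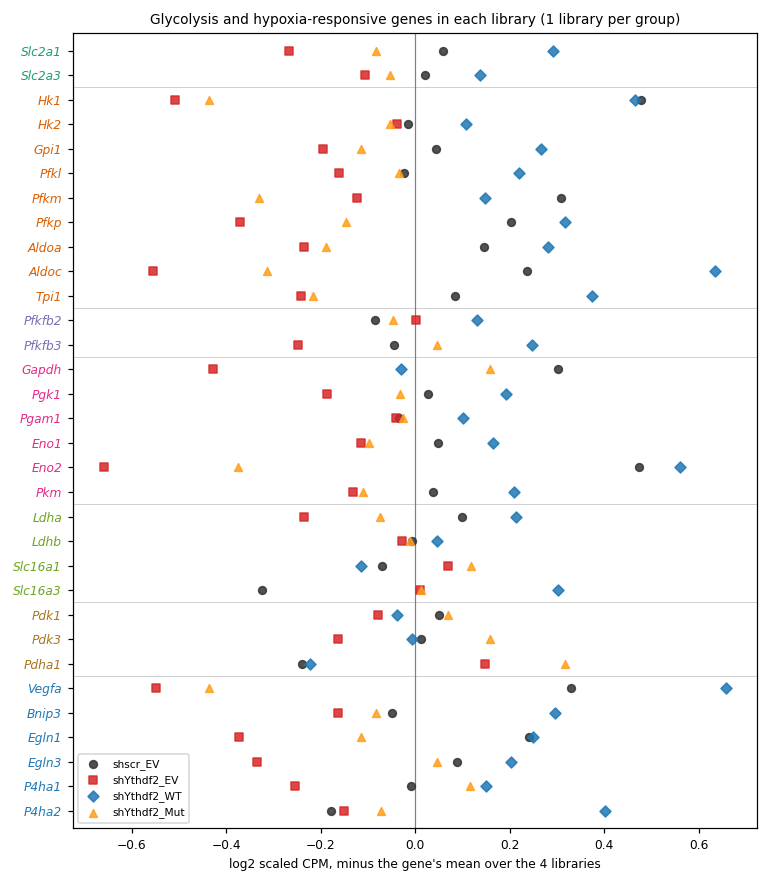
Level of each of the 32 genes in each library, as log2 scaled CPM minus the gene's mean over the 4 libraries (horizontal axis), with genes grouped and coloured by role and 1 point per library. In 21 genes both the control (black circles) and the wild-type rescue (blue diamonds) lie to the right of both the knockdown (red squares) and the mutant rescue (orange triangles).

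The 2 comparisons that share no library, the knockdown against the control and the mutant against the wild-type rescue, were set side by side. In the second, 27 of the 32 genes were lower in shYthdf2_Mut than in shYthdf2_WT (51% of all tested genes), with a median log2 ratio of -0.27. At least 1.5-fold lower were 5 (14.9%, or 8.47% of genes with at least 100 reads on average). In both, 24 genes were lower (31.7% of all tested genes) and 2 were higher (30.5%), namely *Slc16a1* and *Pdha1*. *Hk1*, *Aldoc*, *Eno2* and *Vegfa* were at least 1.5-fold lower in both (5.77%). In 21 genes both the control and the wild-type rescue lay above both the knockdown and the mutant rescue, an order that 27.5% of all tested genes had, and in 2 genes both lay below (26.4%). The 21 included both glucose transporters and all 9 genes that phosphorylate and split the hexose, but none of the 3 genes of pyruvate dehydrogenase control.

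**Figure D2:**
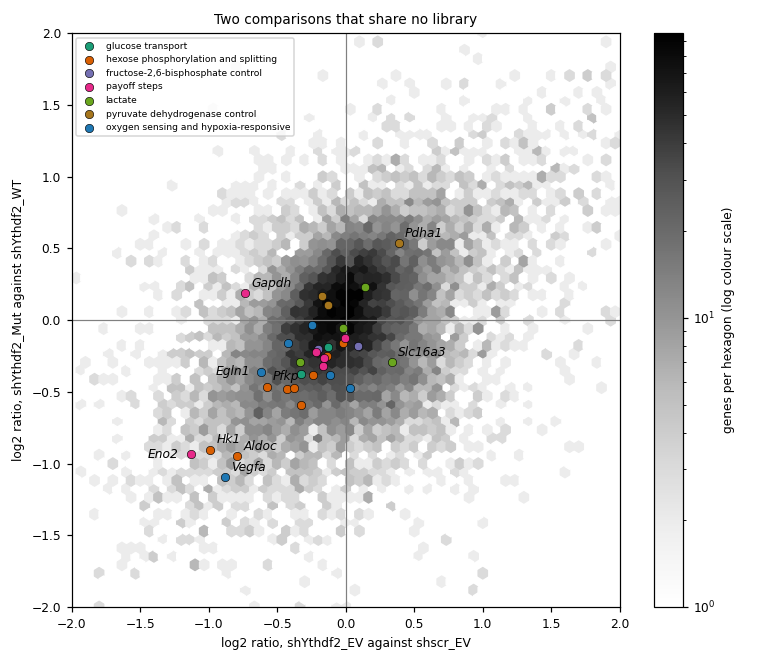
log2 ratio of shYthdf2_EV against shscr_EV (horizontal axis) and of shYthdf2_Mut against shYthdf2_WT (vertical axis), with tested genes within the axis range in grey hexagons shaded by their number and the 32 genes as points coloured by role. In the lower left quadrant lie 24 of the 32 genes, with *Hk1*, *Aldoc*, *Eno2* and *Vegfa* farthest from the centre, *Pdha1* is in the upper right, and *Gapdh* is in the upper left.

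Levels below are CPM, counts divided by the TMM-scaled library size, per kilobase of summed exon length, so that genes can be compared. That length can exceed the transcript, as in *Pkm* (7687 bases, against 2432 for its longest transcript). The order of genes by level depends on it. Glucose enters ESCs largely through GLUT1 and GLUT3, encoded by *Slc2a1* (mm39 chr4:118965942-118994527) and *Slc2a3* (chr6:122704768-122779322). *Slc2a1* was at 181 in shscr_EV, 144 in shYthdf2_EV, 212 in shYthdf2_WT and 164 in shYthdf2_Mut. *Slc2a3* was at 262, 240, 284 and 249 in the same order. Both were highest in the wild-type rescue and lowest in the knockdown. The knockdown log2 ratio was -0.33 for *Slc2a1* (interval -0.37 to -0.28) and -0.13 for *Slc2a3* (-0.15 to -0.10).

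Hexokinase traps glucose in the cell as glucose phosphate, and its 2 genes in the set differed. *Hk1* (chr10:62104634-62215699) was at 25.7 in shscr_EV, 12.9 in shYthdf2_EV, 25.4 in shYthdf2_WT and 13.6 in shYthdf2_Mut. The wild-type rescue did not differ from the control beyond counting error (log2 ratio -0.01, interval -0.10 to 0.07), nor did the mutant rescue from the knockdown (0.07, -0.04 to 0.19). The step between these pairs was -0.99 for the knockdown (-1.09 to -0.89) and -0.90 for the mutant against the wild type (-1.01 to -0.80). *Hk2* (chr6:82702004-82751435), the more abundant of the pair, was at 55.9, 55.0, 60.8 and 54.5, and its knockdown interval included 0 (-0.02, -0.08 to 0.03).

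The other 7 genes of the upper pathway were lower in the knockdown, each with an interval below 0. *Gpi1*, the isomerase that makes fructose phosphate, was at 256 in shscr_EV, 217 in shYthdf2_EV, 299 in shYthdf2_WT and 229 in shYthdf2_Mut. Phosphofructokinase, the committed step, is encoded by *Pfkl*, *Pfkm* and *Pfkp*, and the largest knockdown ratio of these was that of *Pfkp* (-0.57, interval -0.62 to -0.52), whose levels were 40.1, 26.9, 43.4 and 31.5. *Pfkl*, which had the highest level of the 3 but fewer reads than *Pfkp* (9700 against 14901 in shscr_EV), moved less (-0.14, -0.19 to -0.08). *Pfkm*, the muscle form, was at 21.1, 15.7, 18.9 and 13.6, so it was lowest in the mutant rescue (log2 ratio to the knockdown -0.21, -0.35 to -0.07).

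Aldolase splits the hexose, and triose phosphate isomerase interconverts the products. *Aldoa* (chr7:126394406-126400166) had the second highest level of the set by summed exon length, at 667 in shscr_EV, 512 in shYthdf2_EV, 733 in shYthdf2_WT and 529 in shYthdf2_Mut. *Aldoc* (chr11:78213899-78218607), the aldolase best known from brain, had 1112, 731, 1527 and 764 reads. Its log2 ratio was -0.79 in the knockdown (interval -0.98 to -0.60), 1.19 for the wild-type rescue against the knockdown (1.01 to 1.37) and -0.95 for the mutant against the wild type (-1.13 to -0.77). *Aldoc* was thus higher in the wild-type rescue than in the control too, by 0.40 (0.24 to 0.56). *Tpi1*, the isomerase, was at 245, 196, 300 and 199, and was at least 1.5-fold lower in the mutant than in the wild-type rescue (-0.59, -0.64 to -0.54).

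*Pfkfb2* and *Pfkfb3* encode the enzymes that set the amount of the fructose bisphosphate that stimulates phosphofructokinase. *Pfkfb2* was among the least expressed genes of the set, with 528 to 639 reads, and all its intervals included 0. *Pfkfb3* was at 6.63 in shscr_EV, 5.76 in shYthdf2_EV, 8.11 in shYthdf2_WT and 7.06 in shYthdf2_Mut, lowest in the knockdown (-0.20, interval -0.36 to -0.05). The mutant rescue exceeded the knockdown for *Pfkfb3* (0.29, 0.14 to 0.45), and neither gene had both control and wild-type rescue above both other libraries.

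*Gapdh* (chr6:125138815-125143430), which oxidises the triose phosphate and is often used as a reference gene, did not follow the other steps. It was at 332 in shscr_EV, 200 in shYthdf2_EV, 263 in shYthdf2_WT and 300 in shYthdf2_Mut. The knockdown was lowest (log2 ratio -0.73, interval -0.78 to -0.69), and the mutant rescue lay above the wild-type rescue (0.19, 0.14 to 0.23). The wild-type rescue was below the control by -0.33 (-0.38 to -0.29). None of the other 31 genes had this order of control, mutant rescue, wild-type rescue and knockdown.

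Of the remaining steps to pyruvate, the abundant genes differed little and *Eno2* differed most. *Pgk1*, which makes the first ATP of the pathway, was at 473 in shscr_EV, 408 in shYthdf2_EV, 531 in shYthdf2_WT and 455 in shYthdf2_Mut. *Pgam1*, the mutase, was at 377, 375, 413 and 379, with a knockdown ratio of -0.01 (interval -0.04 to 0.03). *Pkm*, pyruvate kinase, was at 445, 396, 502 and 402. The wild-type rescue was highest for all 3. By summed exon length, the highest level of the set belonged to *Eno1*, enolase, at 799 in shscr_EV, 714 in shYthdf2_EV, 866 in shYthdf2_WT and 722 in shYthdf2_Mut. By reads *Pkm* was highest, with 108191 in shscr_EV against 50602 for *Eno1*. *Eno2* (chr6:124737016-124746636), the enolase of neurons, had only 247 reads in shscr_EV, 128 in shYthdf2_EV, 273 in shYthdf2_WT and 138 in shYthdf2_Mut. Its knockdown ratio of -1.13 was the lowest of the set, with the widest interval (-1.60 to -0.69).

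Lactate dehydrogenase and the lactate transporters differed among themselves. *Ldha*, which favours lactate formation, was at 201 in shscr_EV, 159 in shYthdf2_EV, 218 in shYthdf2_WT and 178 in shYthdf2_Mut, while *Ldhb* stayed between 107 and 112. The knockdown ratio was -0.33 for *Ldha* (interval -0.37 to -0.30) and -0.02 for *Ldhb* (-0.10 to 0.06). The transporters MCT1 and MCT4, encoded by *Slc16a1* and *Slc16a3*, were both higher in the knockdown than in the control. *Slc16a1* was at 40.2, 44.2, 38.9 and 45.7, so it was lower in the control and the wild-type rescue than in the other libraries. *Slc16a3* was at 20.0, 25.2, 30.9 and 25.3, so every *Ythdf2* hairpin library was above the control, and the wild-type rescue was the highest (0.63 above the control, 0.52 to 0.73).

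At the branch point to the mitochondrion, the order was reversed for 1 gene and absent for the others. *Pdha1* (chrX:158905215-158921426), the catalytic subunit of the pyruvate dehydrogenase complex, was at 42.9 in shscr_EV, 56.0 in shYthdf2_EV, 43.4 in shYthdf2_WT and 63.0 in shYthdf2_Mut. It was higher by 0.39 in the knockdown (interval 0.30 to 0.47) and by 0.54 in the mutant than in the wild-type rescue (0.46 to 0.62), the highest ratio of the set in both. *Pdk1* and *Pdk3*, kinases that inhibit the complex, had knockdown ratios of -0.13 (-0.19 to -0.07) and -0.18 (-0.29 to -0.06). *Pdk1* was at 39.4, 36.1, 37.1 and 40.0, and *Pdk3* at 6.59, 5.84, 6.50 and 7.29, so both were highest in the mutant rescue.

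Among the genes known for their response to low oxygen, *Vegfa* differed most. *Vegfa* (chr17:46327919-46343303), which encodes a growth factor for blood vessels, had 1889 reads in shscr_EV, 1168 in shYthdf2_EV, 2469 in shYthdf2_WT and 1117 in shYthdf2_Mut. Its log2 ratios were -0.88 in the knockdown (interval -1.03 to -0.73), 1.21 for the wild-type rescue against the knockdown (1.06 to 1.35) and -1.09 for the mutant against the wild type (-1.24 to -0.95). It was the only gene of the set at least 2-fold lower in that last comparison (6.21% of tested genes, or 1.81% of those with at least 100 reads on average). For *Vegfa*, the mutant rescue did not differ from the knockdown beyond counting error (0.11, -0.06 to 0.28).

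The oxygen sensors were lower in the knockdown as well. *Egln1* (chr8:125635326-125675993), the main prolyl hydroxylase that acts on hypoxia-inducible factors, was at 17.3 in shscr_EV, 11.3 in shYthdf2_EV, 17.4 in shYthdf2_WT and 13.5 in shYthdf2_Mut. Its knockdown ratio was -0.62 (interval -0.76 to -0.47), and the interval of the wild-type rescue against the control included 0 (0.01, -0.12 to 0.14). *Egln3*, an inducible relative, was at 13.2, 9.85, 14.3 and 12.8. Its gene is on chromosome 12, whose 735 tested genes had a median knockdown ratio of -0.25 (0.0075 for genes elsewhere), so of its -0.42 (-0.59 to -0.26) a difference of -0.17 was beyond the chromosome's median. In the mutant against the wild-type rescue, *Egln3* was at -0.16, close to the chromosome's median of -0.15. The part of the chromosome in these ratios was not tested. *Bnip3*, a mitophagy receptor, was at 51.1, 47.2, 64.9 and 49.9. *P4ha1* and *P4ha2* encode collagen prolyl hydroxylase subunits, and *P4ha2* was at 17.4, 17.8, 26.1 and 18.8, high in the wild-type rescue alone. *P4ha1*, at 23.5, 19.9, 26.3 and 25.7, was low in the knockdown alone.

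**Figure D3:**
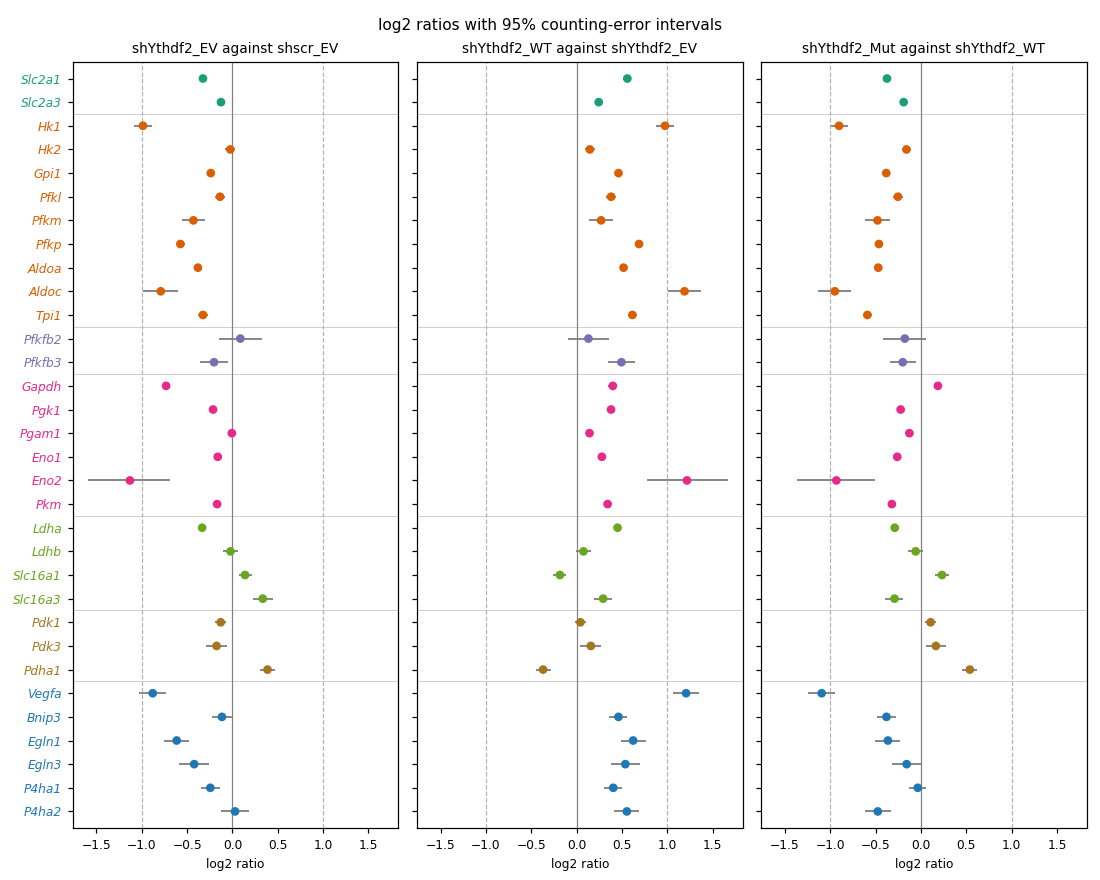
log2 ratio (points) of each of the 32 genes with its 95% counting-error interval (bars) in 3 comparisons, with dashed lines at 2-fold and colours by role. Most points are left of 0 for shYthdf2_EV against shscr_EV and for shYthdf2_Mut against shYthdf2_WT and right of 0 for shYthdf2_WT against shYthdf2_EV, with *Eno2* having the widest bars.

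Within enzyme families, the share of each gene in the summed level does not depend on library scaling. It does depend on the exon length used, which the intervals do not cover. *Hk1* made up 31.5% of hexokinase RNA in shscr_EV (interval 30.4 to 32.5), 19.0% in shYthdf2_EV (18.1 to 20.0), 29.5% in shYthdf2_WT (28.5 to 30.5) and 20.0% in shYthdf2_Mut (19.0 to 21.0), so the isoform balance itself differed. *Ldha* made up 65.0%, 59.9%, 66.0% and 62.3% of *Ldha* and *Ldhb* together. Without length scaling, its share of their reads was 88.4%, 86.0%, 88.8% and 87.1%. *Slc2a1* made up 40.8%, 37.6%, 42.8% and 39.7% of the glucose transporter pair (24.0%, 21.6%, 25.5% and 23.2% of the reads). *Pfkp* made up 29.4%, 24.2%, 28.7% and 26.3% of phosphofructokinase RNA, for which no interval was computed because 3 genes share it. Its share of the reads was 55.6%, 48.9%, 54.5% and 51.4%. In each of these 4 families the named gene had a lower share in the knockdown than in the control. Among the minor forms, *Aldoc* made up 1.80%, 1.36%, 2.16% and 1.56% of aldolase RNA, and *Eno2* made up 0.290%, 0.148%, 0.284% and 0.178% of enolase RNA. *Slc16a3* instead had its highest share in the wild-type rescue, 44.2% (42.8 to 45.7), against 33.3% in the control. For the *Pdk*, *Pfkfb* and *Egln* pairs, the intervals of the control and the knockdown overlapped. *P4ha1* made up 57.5% (55.2 to 59.7) of its pair with *P4ha2* in the control and 52.8% (50.6 to 55.0) in the knockdown. In the wild-type and mutant rescues its share was 50.2% and 57.8%. No shares were computed for other gene pairs, so these values describe the named families only.

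**Figure D4:**
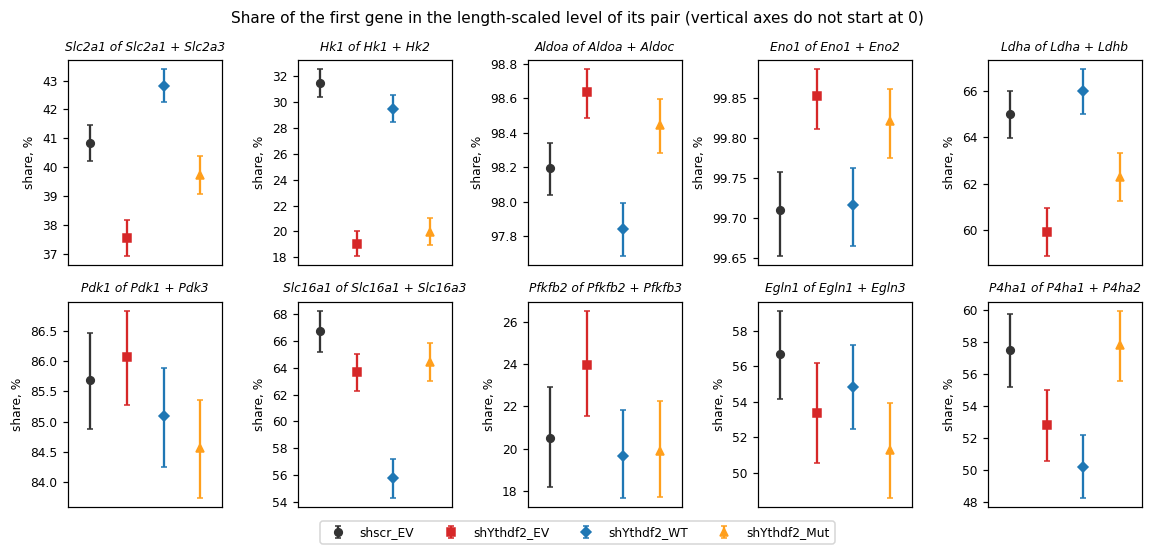
Share in percent (vertical axes, which do not start at 0) of the first-named gene in the length-scaled level of each of 10 gene pairs, 1 point per library with its 95% counting-error interval. The *Hk1* share was 31.5% in the control and 29.5% in the wild-type rescue, against 19.0% in the knockdown and 20.0% in the mutant rescue.

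The median level of the 32 genes was between 41.5 and 47.8 in the 4 libraries, where that of all tested genes was between 3.28 and 3.33, and 30 of the 32 lay above the latter in every library. Among the 10 with the highest level in the control, the knockdown ratios had a median of -0.23 and lay between -0.73 and -0.01, and only *Gapdh* was at least 1.5-fold lower. The other 22 had a median of -0.19 and held the remaining 5 such genes.

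Base composition moved with the ratios that involve the wild-type rescue. Across 16726 tested genes with a known transcript (90.0%), Spearman's rho between GC content and log2 ratio was -0.06 for the knockdown, 0.34 for the wild-type rescue against the knockdown and -0.39 for the mutant against the wild type, as a description across genes of the same libraries. Median GC content was 52.0% for the 32 genes and 49.9% for all. With a trend on GC content and exon length removed, 25 of the 32 were lower in the knockdown (48.8% of all), with a median of -0.18, and 26 were lower in the mutant than in the wild-type rescue (50.4%), with a median of -0.21. *Eno1* and *Pgam1*, lower in the mutant than in the wild-type rescue by -0.26 and -0.13, were then at 0.03 and 0.06, and *Ldhb* was at 0.20, while *Pdk1* and *Pdk3* turned from 0.11 and 0.17 to -0.07 and -0.01. Of the 15 genes with a GC content between 50% and 55%, 14 were lower in the knockdown, where 52.3% of all genes in that band were. In the same band 14 of the 15 were lower in the mutant than in the wild-type rescue, where 60.6% of all genes were. The part of GC content in the single ratios was not tested. GGACT, a common form of the m6A motif, occurred 1.08 times per kilobase in these transcripts and 1.02 times in all.

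**Figure D5:**
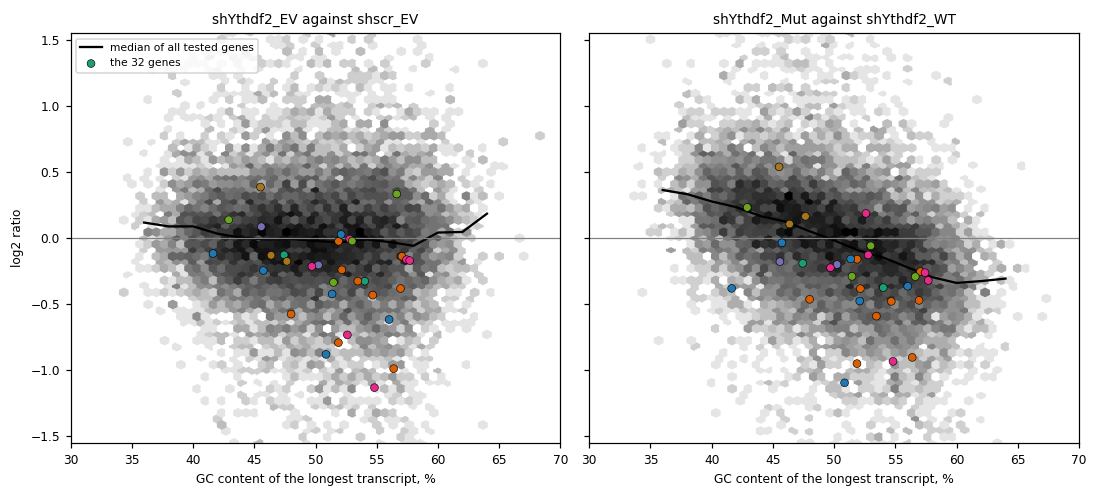
log2 ratio (vertical axes) against the GC content of the longest transcript (horizontal axes, percent) for tested genes within the axis range (grey hexagons, with the median of each bin of GC content as a line) and for the 32 genes (points coloured by role), in 2 comparisons that share no library. The median line slopes downward for shYthdf2_Mut against shYthdf2_WT, where rho was -0.39, and is nearly flat for shYthdf2_EV against shscr_EV, where it was -0.06.

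Copies of these genes took few reads apart from 1. The table holds 15 genes named as pseudogenes or copies of 7 of the 32, and 5 of them had no read. *Eno1b*, a copy of *Eno1*, had 14082, 16522, 17943 and 12887 reads in shscr_EV, shYthdf2_EV, shYthdf2_WT and shYthdf2_Mut, between 27.8% and 32.1% of the reads of *Eno1*, so how reads divide between the pair is uncertain. Reads that aligned to several places were left out by the authors, which may lower the counts of *Gapdh*, *Aldoa*, *Pgk1*, *Pgam1*, *Ldha* and *Ldhb*, which also have copies.

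The other genes of these pathways were less uniform. Of 40 further genes of glucose and pyruvate metabolism, 36 were tested. In the knockdown 24 were lower and 12 higher (50.2% and 49.8% of all tested genes), with a median of -0.24. The interval lay below 0 for 12 and above 0 for 6. Of the 36, 5 were at least 2-fold lower (5.7% of all tested genes) and 0 at least 2-fold higher (7.1%). Of 50 further hypoxia-responsive genes, 49 were tested, with 27 lower and 22 higher, a split near that of all tested genes. Their median was -0.07, and 8 were at least 2-fold lower and 2 at least 2-fold higher. In the mutant against the wild-type rescue, 23 of 36 and 32 of 49 were lower (51%), of which 5 and 4 were at least 2-fold lower (6.21%), while 1 and 0 were at least 2-fold higher (5.4%).

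In several of these genes, as in *Hk1*, both the control and the wild-type rescue lay above the other libraries. *Ero1a*, an oxidase of the endoplasmic reticulum, had 4956 reads in shscr_EV, 2749 in shYthdf2_EV, 4839 in shYthdf2_WT and 2795 in shYthdf2_Mut. *Car12*, a carbonic anhydrase, had 268, 102, 311 and 157, and *Hif3a*, a hypoxia-inducible factor subunit, had 430, 180, 422 and 205. The same was seen for the vasodilator peptide gene *Adm* (202, 105, 269 and 112), for *Pdk2* (149, 79, 171 and 84) and for *Cox4i2*, a subunit of cytochrome oxidase (107, 54, 119 and 45). *Igfbp3*, a binding protein of insulin-like growth factors, had the opposite order, with 252, 722, 339 and 626 reads. *Pklr* (44, 41, 107 and 35) was mainly high in the wild-type rescue, and *Stc2* was lowest in the control (128, 297, 258 and 215). *Pgam2* (106, 93, 132 and 58) also had the control and the wild-type rescue above the other libraries. The intervals of its knockdown (-0.37, -0.99 to 0.21) and its wild-type rescue (0.26, -0.29 to 0.81) against the control both included 0. *Hif1a*, the main inducible factor, had 5624, 5645, 4321 and 4979 reads and a knockdown ratio of -0.18 (interval -0.26 to -0.11), which is 0.07 above the median of its chromosome, 12. *Vhl*, which marks it for destruction, had a knockdown ratio of -0.07 (-0.25 to 0.12). *Epas1* was higher by 0.37 in the knockdown (0.23 to 0.50).

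Markers of other cells were examined beside these results. Of 10 fibroblast markers, *Dcn* and *Lum* had no read in any library, and the list summed to 40.4, 23.0, 34.1 and 23.6 CPM in shscr_EV, shYthdf2_EV, shYthdf2_WT and shYthdf2_Mut. That order is the one seen in most of the 32 genes and comes from *Pdgfrb* (747, 394, 731 and 393 reads) and *Thy1* (448, 296, 317 and 243), while *Col1a1* had the opposite order (51, 82, 50 and 87). The 8 primitive endoderm markers summed to between 532 and 570 CPM, most of it from *Sparc* (448 to 470), but the less abundant ones differed. Of the 7 tested, 6 were higher in the knockdown than in the control (49.8% of all tested genes), with a median log2 ratio of 0.33. In the mutant against the wild-type rescue 6 were higher (49%), with a median of 0.36. The counting interval lay above 0 for only 4 and 3 of the 7. *Gata6*, *Sox17*, *Pdgfra*, *Dab2* and *Col4a1* were higher in both (30.5%), *Sox17* with only 20, 42, 16 and 20 reads. *Dab2*, with 99, 237, 81 and 265 reads, had the opposite order to that of most of the 32 genes. The part of other cells in the ratios was not tested.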

How the data were processed

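Poly(A)+ RNA of 4 ESC samples, each placed in its group by its title, was sequenced in pairs. The authors deposited raw counts per gene, made with featureCounts 2.0.3 on the mm39 RefSeq annotation per the file headers. Both mates were counted, strand was not used, and multiply aligned reads were left out, so antisense and overlapping genes are uncertain. The submitters' processing notes name fastp 0.19.4, HISAT2 2.2.1 and DESeq2 1.40.2, and name mm10, whereas the header names mm39. Coordinates of genes are mm39 and those of promoters GRCm38.p6.

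Libraries were scaled with TMM factors (edgeR 4.0.16, R 4.3.3), and log2 ratios were taken with a prior count of 0.5 for 18586 genes (mean count of 10 or more over the libraries). Intervals used read pairs, taken as reads divided by 2, and amplified reads are not independent molecules. At 3 counts, taken as the floor, a gene reaches 0.0835 to 0.0949 CPM. GC content came from the longest GENCODE vM21 transcript, and a loess trend with span 0.5 was removed as an alternative. The scripts were tested on simulated data. The study's size threshold of 2-fold was used, with 1.5-fold as an alternative. The methods describe 2 replicates, but the labels give 1 library per group. Every gene of the set is named, and of the other pathway genes those with a mean count of 50 or more and a 2-fold ratio in the knockdown or in the mutant against the wild type were ranked, and the first 10 are given. *Hif1a*, *Epas1*, *Vhl* and the marker genes are given as background. The gene set and lists were chosen with earlier results of these data known.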

Additional observations from a re-analysis of the deposited data

How the results depend on the processing

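Of 212 summary values recomputed under other settings (scaling by the size factors of DESeq2 1.42.0, by upper quartiles, by total counts or without mitochondrial genes, a prior count of 5, a filter at a mean of 1 or 50 reads, an interval that excludes 0, a GC and length trend, without chromosomes 12 and Y, the summed counts, and, added after seeing the data, without genes that have copies), 202 stayed within their limits, 10 moved and 0 changed direction, and all 66 medians kept their sign. The median ranged from -0.23 to -0.17 for the knockdown, from 0.33 to 0.46 for the wild-type rescue and from 0.081 to 0.12 for the mutant rescue against the knockdown, from -0.32 to -0.21 for the mutant against the wild type, from 0.11 to 0.18 for the wild type and from -0.14 to -0.018 for the mutant against the control. The GC and length trend moved the median to 0.33 for the wild-type rescue against the knockdown and to -0.21 for the mutant against the wild type, and total counts moved that of the mutant against the control to -0.018. At 1.5-fold in place of 2-fold, the number lower was 6 for the knockdown, 5 for the mutant against the wild type and 4 for the mutant against the control, and the number higher was 7 for the wild type and 1 for the mutant against the knockdown and 1 for the wild type against the control. With upper-quartile scaling 2 genes were at least 2-fold lower in the knockdown, where *Hk1* lies close to the threshold. Of 1338 single gene values, 1205 stayed within their counting interval and 133 moved, and none of those at least 2-fold apart changed sign. Smaller ratios changed sign in 39 of the 1338 values. In 9 of these the interval had excluded 0, and all 9 came with the GC and length trend: *Pgam1*, *Eno1*, *Pdk1* and *Pdk3* in the mutant against the wild type, *Aldoa*, *Eno1* and *Pdk1* in the wild type against the control, *Slc2a3* in the mutant against the knockdown and *Pgk1* in the mutant against the control. The cause of these moves was not tested. No paired analysis was possible because each group has 1 library, and for the same reason no replicate could be left out. Depth limits *Eno2* most, at 128 to 273 reads.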
